A study of Mus musculus with 13 samples.

Results

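The gold compound auranofin was given to 5 of the 13 mouse aortas of this series and withheld from the other 8. The 5 libraries were chosen because their titles name auranofin, alone or together with atorvastatin; no measured value entered the choice. All 13 were whole aortas of ApoE-/- mice, which lack apolipoprotein E and develop atherosclerosis, and feeding of a Western diet (WD) began at 6 weeks of age and lasted 16 weeks. The diet alone gave 5 libraries (WD 1 to 5). Auranofin at 3 mg/kg/day in the diet gave 3 (auranofin 1 to 3), atorvastatin at 10 mg/kg/day gave 3 (atorvastatin 1 to 3), and both drugs at these doses gave 2 (combination 1 and 2). The auranofin comparison was therefore made in 2 strata, auranofin against WD in mice without atorvastatin and the combination against atorvastatin in mice with it. The strata had no library in common. The labels named no animal for any library, no sex and no batch, so p-values measure only the spread between these samples, and no mice on a normal diet and no wild-type mice were analysed here.

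Auranofin is an oral drug for rheumatoid arthritis. Its gold atom binds the selenocysteine of thioredoxin reductase, the enzyme that keeps thioredoxin reduced, and thiol-reactive gold can also release the transcription factor NRF2 from its inhibitor KEAP1 and induce metal-binding and heat shock proteins. Atorvastatin, a statin, inhibits cholesterol synthesis. The atherosclerotic aorta holds contractile smooth muscle cells, pericytes, endothelium, fibroblasts, plaque macrophages and lymphocytes, with fat of the brown type around the thoracic part. In bulk tissue, fewer cells of a type and less RNA per cell cannot be told apart.

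The libraries held 19703683 to 26079566 counts and 22432 to 25464 genes with a count. Mitochondrial genes took 9.36% (WD 1) to 38.8% (auranofin 2) of counts. Their share was 21.8% ± 10.5 (SD, n = 5) with auranofin and 17.7% ± 6.17 (n = 8) without it (exact two-sided permutation within strata, p = 0.352; adjusted 0.816 over 4 values per library, the other 3 being total counts, genes detected and the scaling factor). Contractile smooth muscle genes, 18 of 18 detected in every library, summed to 9034 to 24135 CPM (counts scaled to library size) with auranofin alone and 20147 to 41702 in WD. Transcripts of tissues other than the vessel wall differed between libraries. Heart muscle genes (18 listed) summed to 2091 CPM in combination 2, 715 in WD 4 and 514 in WD 1, and to at most 60.6 in the other 10. Scaling factors were lowest in auranofin 2 (0.629) and WD 2 (0.639). Auranofin 2 stood apart in plasma cell genes, at 2102 CPM against at most 362 elsewhere, and in endothelial genes, at 3862 against at most 1642. Apoe transcript was present in all libraries, at 8.90 to 26.9 CPM with auranofin and 6.21 to 17.5 without it.

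No gene passed as different between aortas with and without auranofin. Over all 13 libraries, with atorvastatin as covariate, 0 of 18055 genes tested (0%) had an adjusted p under 0.05 (edgeR quasi-likelihood test, two-sided, Benjamini-Hochberg adjustment), and the smallest adjusted p was 0.998. DESeq2 and limma voom also passed 0. The unadjusted p was under 0.05 in 486 genes (2.69%), of which 342 (1.89%) were higher and 144 (0.798%) lower with auranofin. For comparison, 0.05 of all genes tested would be 903 genes. Genes named below therefore did not pass in this comparison, and their values are given as measured differences. Log2 fold changes are given throughout with their standard error, as ± SE. Libraries were not stranded, so overlapping genes on opposite strands cannot be told apart.

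The strata were then fitted apart. Without atorvastatin 0 genes passed (smallest adjusted p 0.671 in edgeR) and 1173 (6.5%) had an unadjusted p under 0.05, 489 higher (2.71%) and 684 lower (3.79%). With atorvastatin 0 passed (smallest adjusted p 1) and 237 (1.31%) had an unadjusted p under 0.05, 170 higher (0.942%) and 67 lower (0.371%). The difference between the strata, tested as an interaction, was past the adjusted threshold for 0 genes (smallest adjusted p 0.791) and had an unadjusted p under 0.05 for 559 (3.1%), 379 higher with atorvastatin (2.1%) and 180 lower (0.997%). Fitted higher with auranofin were 46.4% of all genes without atorvastatin and 52.4% with it, and 52.3% had a higher estimate in the second stratum. DESeq2 passed 2, 5 and 9 genes in these 3 fits. Among them were Foxs1 and Ighg2c without atorvastatin, Treml1, Sbk3, Hcn4 and Myl4 with it, and Mybpc3, Actc1, Fndc5, Cox6a2, Tnni3, Tnnc1, Myh6, Myh7 and Myl4 in the interaction. All 9 genes of the interaction, and Sbk3 and Hcn4, had their highest level in combination 2, Treml1 in combination 1 and Ighg2c in auranofin 2. Limma voom passed 0 in each of the 3 fits.

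Differences found in both strata were few. At an unadjusted p under 0.05 in each, 7 genes (0.0388%) had the same direction and 23 (0.127%) the opposite one. The 7 were all higher with auranofin, and were 0.597% of the 1173 genes of the first stratum and 2.95% of the 237 of the second. They were Car2, Cd226, Slamf1, Hsd17b14, Ifit1bl2, Rasl2-9 and the predicted gene Gm12781, of which the last 5 fall below the expression limit set for named genes and were named after their values were seen. Of the 23, 21 were lower without atorvastatin and higher with it. Of these 21, 8 are on the heart muscle list, which holds 17 of the 18055 genes tested. Among them was Myh6, the alpha myosin heavy chain of the heart, with log2 fold changes of −6.49 and 8.04 in the strata. Further muscle genes among the 21, such as Cox6a2, Lmod2, Casq2, Csrp3, Mb and Ankrd1, are not on that list. The other 2 of the 23, Ppat, an enzyme of purine synthesis, and the predicted gene Gm16754, were higher without and lower with atorvastatin.

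Over all genes the fitted direction was shared less often than it was opposed. The sign of the log2 fold change was the same in both strata for 6832 genes (37.8%), and the fold changes had a Pearson correlation of −0.274 and a Spearman correlation of −0.249 across genes, which are not independent replicates and share the libraries of each stratum. Among the 4556 genes whose mean log2 CPM reached 5 the share was 33.7%. Of the 489 genes higher without atorvastatin, 247 (50.5%) were also fitted higher with it, while of the 684 lower ones 141 (20.6%) were also lower. This depended on single libraries. Without combination 1 the share was 52.2% and the counts in both strata were 74 in the same and 40 in the opposite direction. Without combination 2 it was 28.8% (3 and 12), without auranofin 2 29.6% (1 and 11), without auranofin 1 44.2% (6 and 3), and without WD 2 45.7% (15 and 34).

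**Figure D1:**
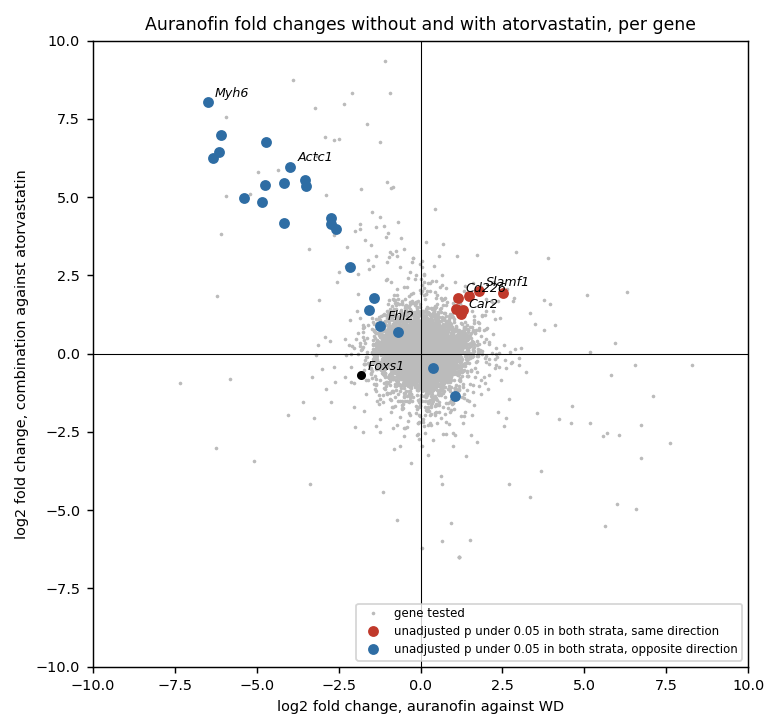
Each point is 1 of 18055 genes, placed by its log2 fold change for auranofin against WD (horizontal axis) and for the combination against atorvastatin (vertical axis). Red points are the 7 genes with an unadjusted p under 0.05 in both strata and the same direction, blue points the 23 with opposite directions, mostly in the upper left; Foxs1 is the black point.

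Foxs1 (ENSMUSG00000074676), a forkhead transcription factor of pericytes and vascular mural cells, had the smallest p among the genes lower with auranofin. Its level in the WD libraries was 24.7, 24.98, 18.6, 15.7 and 42.4 CPM, and with auranofin alone 7.88, 3.43 and 9.94 CPM. With atorvastatin it was 13.2, 12.8 and 20.5 CPM, and with both drugs 9.32 and 9.92 CPM. The 5 aortas given auranofin all lay below the 8 others, and auranofin 2 held the lowest value. The log2 fold change was −1.36 ± 0.33 over all libraries (edgeR, unadjusted p 0.00106, adjusted p 0.998), −1.82 ± 0.39 without atorvastatin and −0.69 ± 0.46 with it. DESeq2 gave an adjusted p of 0.0276 in the first stratum, where edgeR gave 0.671. The interaction had an unadjusted p of 0.0696, so the larger difference in the first stratum was not shown to differ from the second. Without auranofin 2 the log2 fold change over all libraries was −1.12.

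In 15 genes (0.0831%) the groups did not overlap, with all 5 libraries with auranofin on one side of the 8 without it, 8 higher (0.0443%) and 7 lower (0.0388%). Of these, 9 had a mean log2 CPM of 0 or more. Besides Foxs1, the most highly expressed were Tor1aip2, Bhlhe40 and Gtpbp3, which were named after their values were seen. Tor1aip2, which encodes an activator of the torsin ATPases of the endoplasmic reticulum, lay at 84.03 to 89.7 CPM with auranofin and 75.7 to 82.4 without it, with means 12% apart. Its log2 fold change was 0.16 ± 0.10 and its unadjusted p 0.122, although the groups did not overlap. Gtpbp3, an enzyme that modifies mitochondrial tRNAs, lay at 10.8 to 12.6 CPM with auranofin and 13.3 to 16.6 without it (log2 fold change −0.29 ± 0.11). Bhlhe40, a transcriptional repressor tied to the circadian clock, lay at 70.95 to 97.6 CPM with auranofin and 42.7 to 70.93 without it, so that its groups touched, and its log2 fold change was 0.44 ± 0.21 and 0.44 ± 0.26 in the strata. Of the other separated genes, Car2, Hsd17b14, Ifit1bl2, Zfp783, Gm5853 and 1 gene without a symbol were higher with auranofin. Cit, Gm17315, Gm19689, Gm8437 and another gene without a symbol were lower.

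Creb3l1 and Plec were lower with auranofin in both strata with small errors. Creb3l1 (ENSMUSG00000027230) encodes a transcription factor anchored in the endoplasmic reticulum that induces type I collagen genes. It stood at 42.2, 31.3, 42.1, 38.4 and 37.5 CPM in WD and at 22.1, 24.6 and 28.1 CPM with auranofin alone. With atorvastatin it stood at 45.03, 45.5 and 41.98 CPM, and with both drugs at 38.4 and 31.8 CPM. The groups were separated in each stratum, while combination 1 and 2 lay within the WD range. The log2 fold change was −0.51 ± 0.12 over all libraries (edgeR, unadjusted p 0.00113), −0.62 ± 0.16 without atorvastatin and −0.33 ± 0.19 with it. Plec (ENSMUSG00000022565), plectin, links intermediate filaments to junctions and actin. It stood at 94.9, 102 and 108 CPM with auranofin alone, below the WD range of 129 to 150.4. With both drugs it was 137 and 120.2 CPM, against 188, 182 and 139 with atorvastatin. Its log2 fold change was −0.48 ± 0.17 without and −0.40 ± 0.21 with atorvastatin. Over the alternatives tried, both genes kept their direction and neither passed the adjusted threshold. Both were picked by a small p in these same libraries, so the selection itself largely sets the kept direction.

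The other genes of the lower group by the smallest p were Rasl11a, Rasl11b, Cit, Npas2 and Krt13. Rasl11a, a small GTPase of the Ras family, was at 4.87 to 14.2 CPM with auranofin and 13.1 to 32.4 without it (−0.94 ± 0.25; −1.08 ± 0.33 and −0.74 ± 0.41 in the strata without and with atorvastatin). It was separated within each stratum. Its relative Rasl11b was at 14.8 to 57.3 against 42.5 to 77.1 CPM (−0.80 ± 0.26), and the groups overlapped because combination 1 held 57.3 CPM. Cit, citron kinase, which acts in cytokinesis, was separated at 0.584 to 0.922 against 1.06 to 1.83 CPM (−0.82 ± 0.23). Npas2, a clock transcription factor related to Clock, had nearly equal differences in the strata, −1.71 ± 0.75 and −1.83 ± 0.93. Its levels are given with the clock genes. Krt13, a keratin of mucosal epithelium, was at or below 0.333 CPM with auranofin and reached 7.64 CPM in WD 3 (−3.15 ± 0.97; −2.36 without WD 3).

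**Figure D2:**
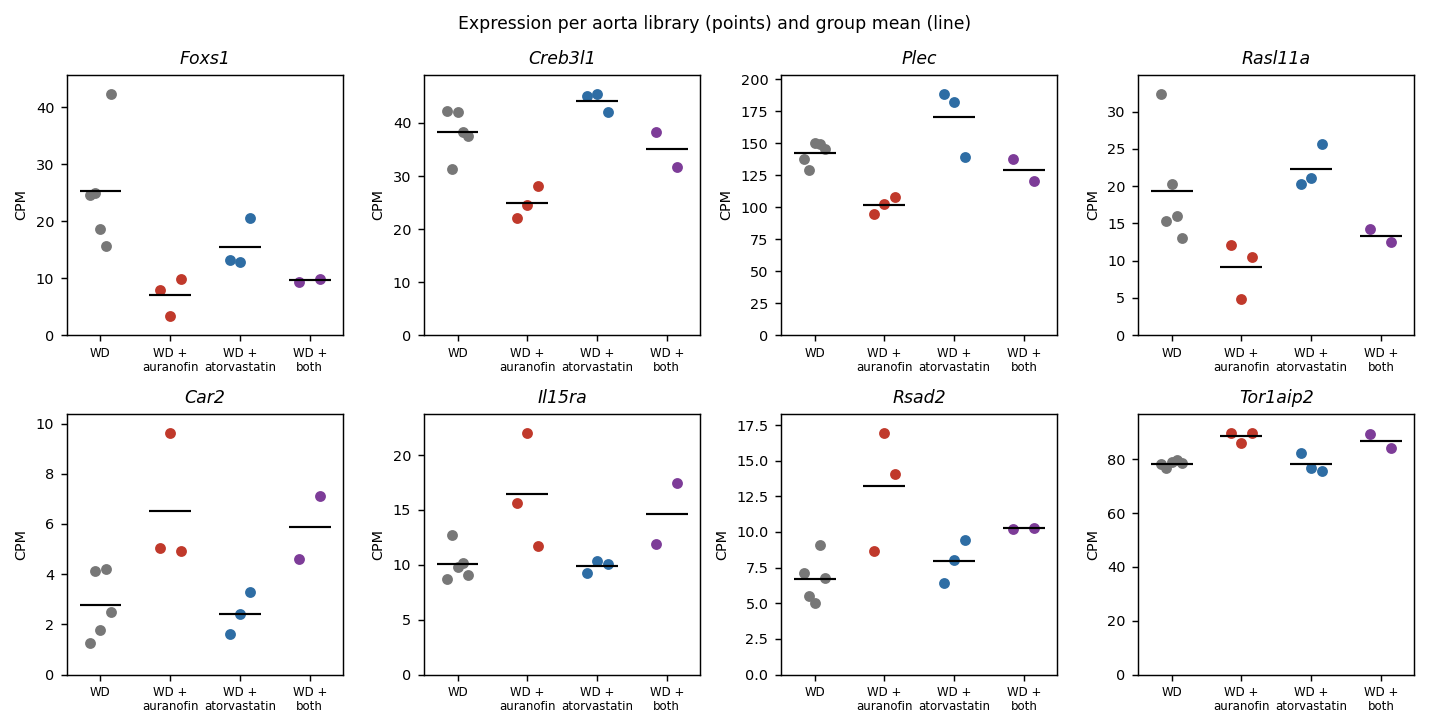
CPM per library (points) and group mean (line) of 8 genes in WD, WD with auranofin, WD with atorvastatin and WD with both drugs; each vertical axis starts at 0. Foxs1, Car2 and Tor1aip2 have all 5 aortas given auranofin on one side of the other 8, and Creb3l1, Plec and Rasl11a are lower within each stratum.

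Car2 (ENSMUSG00000027562), carbonic anhydrase 2, which interconverts carbon dioxide and bicarbonate, had the smallest p among the higher genes with a mean log2 CPM of 0 or more. The predicted gene Gm12781, below that limit, had a smaller one (0.000601, against 0.0013 for Car2). WD libraries held 1.25, 4.14, 1.76, 4.20 and 2.48 CPM and auranofin libraries 5.05, 9.62 and 4.92 CPM. The atorvastatin libraries held 1.63, 2.39 and 3.27 CPM and the combination 4.62 and 7.13 CPM. The groups were separated over all 13 libraries, although WD 2 and WD 4 came close to the lowest values with auranofin. The differences were of like size in the strata, 1.24 ± 0.41 without atorvastatin (edgeR, unadjusted p 0.0104) and 1.27 ± 0.52 with it (p 0.029), and 1.25 ± 0.31 over all libraries. Its interaction estimate was 0.04 ± 0.67. Counts behind these values ran from 35 to 151 per library. Erythroid genes were also fitted higher in 8 of 8 over all libraries, with their highest summed level in WD 2 (11344 CPM). The part of red cells in the Car2 values was not tested.

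Il15ra and Cd226 were further genes of the higher group by the smallest p. Il15ra, the receptor chain that presents interleukin 15, was at 11.7 to 22.00 CPM with auranofin (median 15.6) and 8.73 to 12.7 without it (median 9.94), with log2 fold changes of 0.70 ± 0.22 and 0.57 ± 0.28 in the strata. The groups overlapped, since WD 2 lay above the lowest library with auranofin. Cd226, an activating receptor of T and natural killer cells and platelets, was at 2.04, 2.77 and 0.819 CPM with auranofin alone and 0.507 to 1.18 CPM in the 8 others. With both drugs it was 5.03 and 1.51 CPM, so combination 1 held the highest value and auranofin 3 lay within the range without auranofin. Its log2 fold change was 1.40 ± 0.36, and 1.00 without combination 1. Combination 1 also held the most platelet transcripts, 226 CPM over the 12 platelet genes against at most 155 elsewhere, and their part in the Cd226 value was not tested. Slamf1, a receptor shared by lymphocytes, had 47 counts in combination 1 and 4 to 14 in the other 4 libraries with auranofin, against 2 to 8 without it.

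Rsad2 (viperin, an antiviral enzyme induced by interferon) was higher with auranofin, at 8.68, 16.9 and 14.1 CPM against 7.12, 5.53, 5.03, 9.06 and 6.80 in WD. With both drugs it was 10.2 and 10.3 CPM, against 6.39, 8.05 and 9.40 with atorvastatin. The groups overlapped only through auranofin 1, which lay below WD 4 and atorvastatin 3, and the log2 fold changes were 0.98 ± 0.25 without and 0.37 ± 0.31 with atorvastatin. Ifit1bl2, a member of the interferon-induced IFIT family with close copies among which reads could be split, was at 0.481 to 1.25 against 0.0756 to 0.438 CPM, from 2 to 19 counts per library. The interferon-stimulated list as a whole had 19 of 24 members fitted higher, and Rsad2 was the 1 member with an unadjusted p under 0.05. Its median log2 fold change was 0.13 over all libraries, 0.24 and 0.06 in the strata, and −0.03 over all libraries without auranofin 2. Its members with the next smallest p were Ifi27 (0.38 ± 0.23), Mx2 (0.34 ± 0.24) and Ifih1 (0.29 ± 0.22).

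The sequences before the start sites of Rsad2 and Ifit1bl2 are shown because both genes are interferon-induced and both were higher with auranofin. They are the 250 bases before the start site in the RefSeq windows of mouse build GRCm38.p6, on the minus strand of chr12:26456453-26456702 (Rsad2) and the minus strand of chr19:34640744-34640993 (the first of 2 Ifit1bl2 windows), written 5′ to 3′. Capitals mark matches to AAANNGAAA on either strand, a core of the interferon-stimulated response element.
Rsad2: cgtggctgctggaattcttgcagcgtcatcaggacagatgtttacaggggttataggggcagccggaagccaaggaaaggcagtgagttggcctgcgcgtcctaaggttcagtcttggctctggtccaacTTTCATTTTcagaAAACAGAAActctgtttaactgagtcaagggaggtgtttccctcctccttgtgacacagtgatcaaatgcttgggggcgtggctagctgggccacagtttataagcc
Ifit1bl2: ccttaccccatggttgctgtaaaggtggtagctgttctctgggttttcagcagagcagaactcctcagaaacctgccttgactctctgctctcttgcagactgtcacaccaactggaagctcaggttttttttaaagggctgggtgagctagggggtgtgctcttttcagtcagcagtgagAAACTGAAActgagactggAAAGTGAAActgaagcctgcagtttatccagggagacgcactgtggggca
Both hold 2 such matches. AAANNGAAA was present in 10.6% of all 32851 windows of 300 bases. Of the 28 genes that were named by rank or separated, 14 had a window, with 22 windows in all, and 4 of these windows held AAANNGAAA (1 each of Rsad2, Ifit1bl2, Il15ra and Krt13), a motif chosen after the ranked genes were seen. Other motifs searched on both strands in the same 22 windows were the antioxidant response core TGACNNNGC (6 windows; 12.4% of all windows), the metal response core TGCACNC (2; 12.6%), TTCNNNGAA, a STAT site (3; 8.3%), and the CArG box of smooth muscle genes (0; 1.63%). A match is a description of letters and not a bound site.

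The other genes of the higher group by the smallest p were Apmap, Adtrp, Lncbate10 and Lrrn4cl. Apmap, a membrane protein of adipocytes, was at 38.5 to 79.8 CPM with auranofin and 29.4 to 47.1 without it (0.64 ± 0.18). Adtrp, a hydrolase of fatty acid esters, was at 2.88 to 38.2 against 1.11 to 9.64 CPM (1.89 ± 0.56), and Lncbate10, a long noncoding RNA of brown fat, at 0.370 to 8.12 against 0.0358 to 2.28 CPM (2.42 ± 0.70). In Apmap, Adtrp and Lncbate10 combination 1 lay within the range without auranofin and combination 2 above it. These genes were highest in auranofin 1, auranofin 2 and combination 2, which also held the highest summed brown adipocyte levels. Over the alternatives tried, their log2 fold changes fell as low as 0.39, 0.81 and 1.10. The part of adjoining fat in these genes was not tested. Lrrn4cl, a membrane protein with leucine-rich repeats, was at 11.98 to 39.6 against 7.34 to 19.4 CPM (0.71 ± 0.22) and was separated in each stratum.

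Gene lists were set beside the same counts over all genes, of which 8057 of 18055 (44.6%) were fitted higher over all libraries, 18.3% higher in both strata and 19.5% lower in both, with a median log2 fold change of −0.03. Lists were not tested, and members of a list are not replicates. Pericyte and mural cell genes, which include Foxs1, were fitted lower in 12 of 12 cases, with medians of −0.36 over all libraries, −0.52 without and −0.32 with atorvastatin, and 8 were lower in both strata. Notch3, a receptor that maintains mural cells, was at −0.21 ± 0.26 and −0.47 ± 0.33, and Cspg4, the NG2 proteoglycan, at −0.54 ± 0.45 and −0.47 ± 0.56. Their summed level was 1382 to 3619.8 CPM with auranofin and 1589 to 4500.4 in WD, 2699.5 to 3151 with both drugs and 3312 to 4521 with atorvastatin. Thus only the second stratum was separated in the sum, and 19.3% of all genes were separated there.

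Genes of the fibrillar matrix and its crosslinking were fitted lower with auranofin in 23 of 24 cases, with medians of −0.43 without and −0.18 with atorvastatin, and 17 were lower in both. Col1a1, a chain of type I collagen, was at 485, 540.1 and 785 CPM with auranofin against 833 to 1082 in WD, all 3 below the 5. With both drugs it was 1044 and 966 CPM, against 1323, 1478 and 961 with atorvastatin, where the groups overlapped. The log2 fold changes were −0.71 ± 0.25 and −0.32 ± 0.31. Eln, elastin, was at −0.61 ± 0.40 and −0.42 ± 0.49, and Loxl2, a collagen crosslinking enzyme, at −0.44 ± 0.27 and −0.35 ± 0.33. Loxl1, which crosslinks elastin, was at −0.82 ± 0.30 in the first stratum and −0.01 ± 0.36 in the second (interaction unadjusted p 0.101). TGF-beta target genes were fitted lower in 17 of 18 cases (medians −0.26 and −0.21; 11 lower in both), among them Tgfb3, a TGF-beta ligand (−0.56 ± 0.27 and −0.40 ± 0.34), and Ccn2, a matricellular target (−0.88 ± 0.47 and −0.62 ± 0.58). Cartilage and calcification genes were lower in 11 of 17 (medians −0.37 and −0.45; 10 lower in both). Medians over all libraries moved with single libraries. The cartilage median went from −0.28 to −0.02 without WD 1, and without auranofin 2 the pericyte median went from −0.36 to −0.19 and the matrix median from −0.32 to −0.19. The TGF-beta median went from −0.22 to −0.14 with the adipocyte score as covariate.

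Contractile smooth muscle genes did not keep their direction between the strata. All 18 were fitted lower over all libraries (median −0.40, or −0.21 without auranofin 2), but 16 were lower without atorvastatin (median −0.76) and 7 with it (median 0.04). Acta2, smooth muscle actin, was at −0.89 ± 0.45 and −0.05 ± 0.55, and Tagln, transgelin, at −0.87 ± 0.39 and 0.22 ± 0.47. Myh11, smooth muscle myosin, was at 745 CPM in auranofin 2 and 837 in WD 2, and at 2702 to 5549 in the other 11, with a log2 fold change of −0.22 ± 0.41, and 0.02 without auranofin 2.

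**Figure D3:**
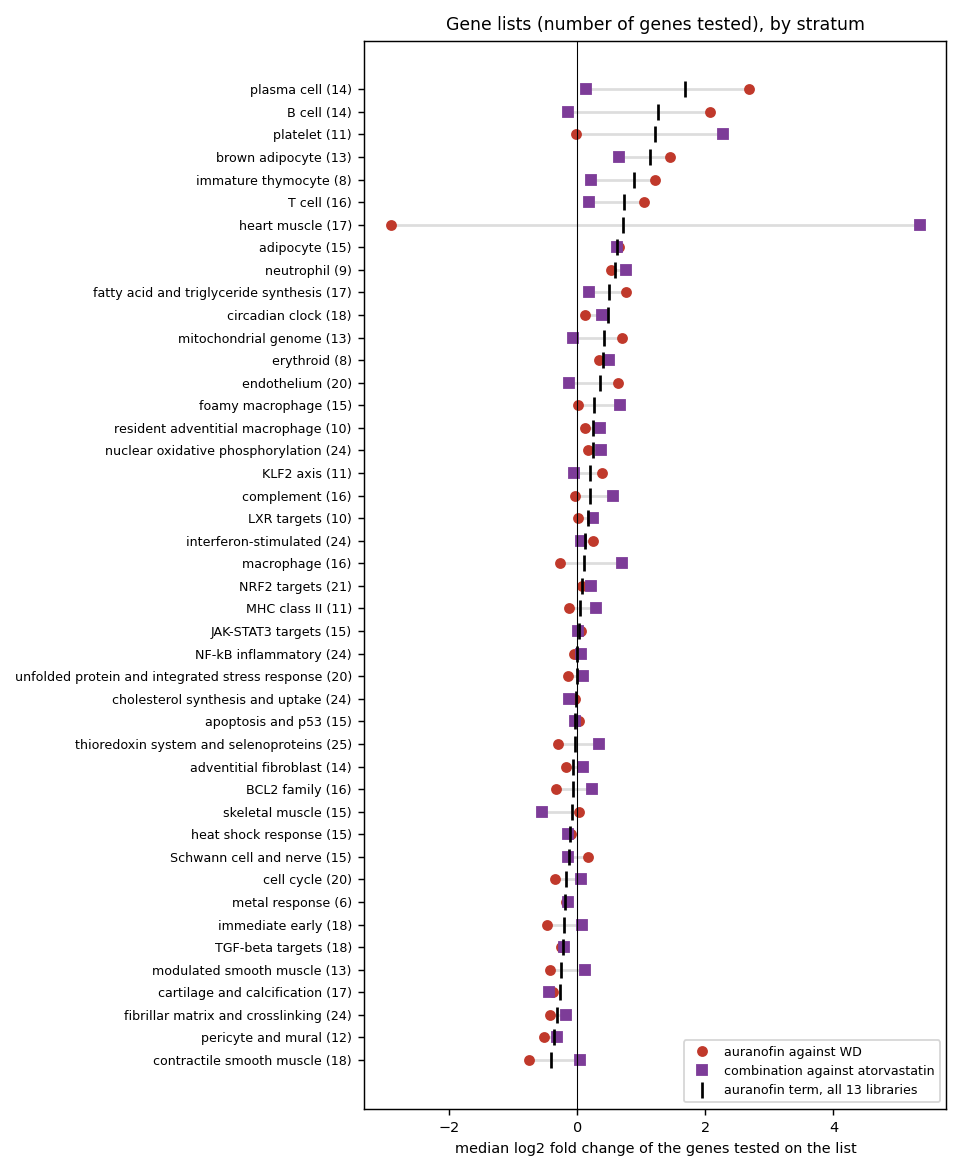
Median log2 fold change of the genes tested on each of 44 lists, for auranofin against WD (red circles), the combination against atorvastatin (purple squares) and the auranofin term over all libraries (black bars). Pericyte, matrix, TGF-beta and cartilage lists lie left of 0 in both strata and adipocyte lists right of it, while heart, platelet and B cell lists lie far apart between the strata.

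The direct target of auranofin and the responses it is known for showed no gene past the threshold. Of a panel of 32 genes, chosen with earlier results of these data known and so not independent evidence, 15 were fitted higher and 17 lower with auranofin, 17 had the same sign in both strata (37.8% of all genes did), and 6 had an unadjusted p under 0.05 (2.69% of all genes), namely Foxs1, Rsad2, Col1a1, Bik, Ucp1 and Ighm. Txnrd1, cytosolic thioredoxin reductase, was at 46.6, 39.3 and 54.2 CPM with auranofin alone and 57.8, 42.9, 45.3, 55.7 and 29.6 in WD. It was 48.4 and 63.7 CPM with both drugs and 65.6, 71.99 and 45.7 with atorvastatin. The groups overlapped in both strata, and the log2 fold change was −0.04 ± 0.18. Txnrd2, the mitochondrial enzyme, was at 0.20 ± 0.20 and Txn1, thioredoxin, at −0.15 ± 0.34. The 25 genes of the thioredoxin system and the selenoproteins had 11 members fitted higher, with opposite medians in the strata, −0.29 and 0.34; 23 were fitted higher with atorvastatin and 8 without it. Sephs2, which makes selenophosphate, was higher in both (0.53 ± 0.34 and 0.67 ± 0.43). Enzyme activity was not measured.

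NRF2 targets had 11 of 21 members fitted higher, with a median of 0.07 (0.08 and 0.21 in the strata). Hmox1, heme oxygenase 1, was at 33.5 to 52.9 CPM with auranofin and 11.2 to 67.3 without it (0.33 ± 0.37). Gclm, which limits glutathione synthesis, was at 0.10 ± 0.10, Srxn1, sulfiredoxin, at −0.09 ± 0.15, Nqo1, a quinone reductase, at −0.15 ± 0.21, and Slc7a11, the cystine importer, at 0.43 ± 0.57. Of the metal response genes 4 of 6 tested were fitted lower, and the metallothioneins Mt1 and Mt2 were at −0.20 ± 0.43 and −0.31 ± 0.55. Heat shock genes were fitted higher in 5 of 15 (median −0.12), with Hspa1a at −0.30 ± 0.74 and Hspa1b, a near-identical copy whose reads can be split with it, at −0.27 ± 0.78. Genes of the unfolded protein and integrated stress response were fitted higher in 10 of 20 (median 0.00).

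Fat-associated genes were fitted higher in both strata, and differed widely between libraries. Of 15 adipocyte genes 14 were fitted higher over all libraries and 12 in both strata (medians 0.66 and 0.62). Of 13 brown adipocyte genes 12 were fitted higher and 10 in both strata (medians 1.44 and 0.65), and 10 were higher at an unadjusted p under 0.05 over all libraries, against 1.89% of all genes. Ucp1, the uncoupling protein of brown fat, was at 744, 1817 and 257 CPM with auranofin and 50.03, 117, 584, 153 and 251 CPM in WD. It was 143 and 990.2 CPM with both drugs, on either side of 211, 355 and 398 CPM with atorvastatin, and the groups overlapped in both strata. The summed brown adipocyte level placed auranofin 2 (3040.2 CPM), combination 2 (1890.4) and auranofin 1 (1397) highest, while auranofin 3 (609.7) and combination 1 (363) lay among the 8 without auranofin (206 to 1066 in WD, 548 to 833 with atorvastatin). Adipoq, adiponectin, was at 35.6 and 233 CPM in the 2 combination libraries, below and above all 3 libraries with atorvastatin (39.8, 101 and 76.8 CPM). In the second stratum the fat-associated lists were thus higher in combination 2 only.

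Metabolic lists that fat also expresses had the same signs, except the mitochondrial genome list. Fatty acid and triglyceride synthesis genes were fitted higher in 16 of 17 (medians 0.76 and 0.19), such as Gpam, the first enzyme of triglyceride assembly (1.19 ± 0.46 and 0.53 ± 0.58), and Dgat2, which makes triglyceride (0.92 ± 0.53 and 0.87 ± 0.67). With an adipocyte score as covariate the median over all libraries was 0.00, against 0.50 without it. Lpl, lipoprotein lipase, an enzyme of fat and foam cells alike, was at 1.04 ± 0.45 and 1.10 ± 0.57. Nuclear genes of oxidative phosphorylation were fitted higher in 19 of 24 and in both strata in 14 (medians 0.17 and 0.37), and their median was 0.04 with the adipocyte covariate. Genes of the mitochondrial genome were higher in 13 of 13 without atorvastatin (median 0.70) and lower in 11 of 13 with it (−0.07). Leaving out auranofin 2 brought their overall median to −0.12. The adipocyte score came from the same libraries, so as covariate it cannot separate adjoining fat from other differences in these genes. The part of adjoining fat in these values was not tested.

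**Figure D4:**
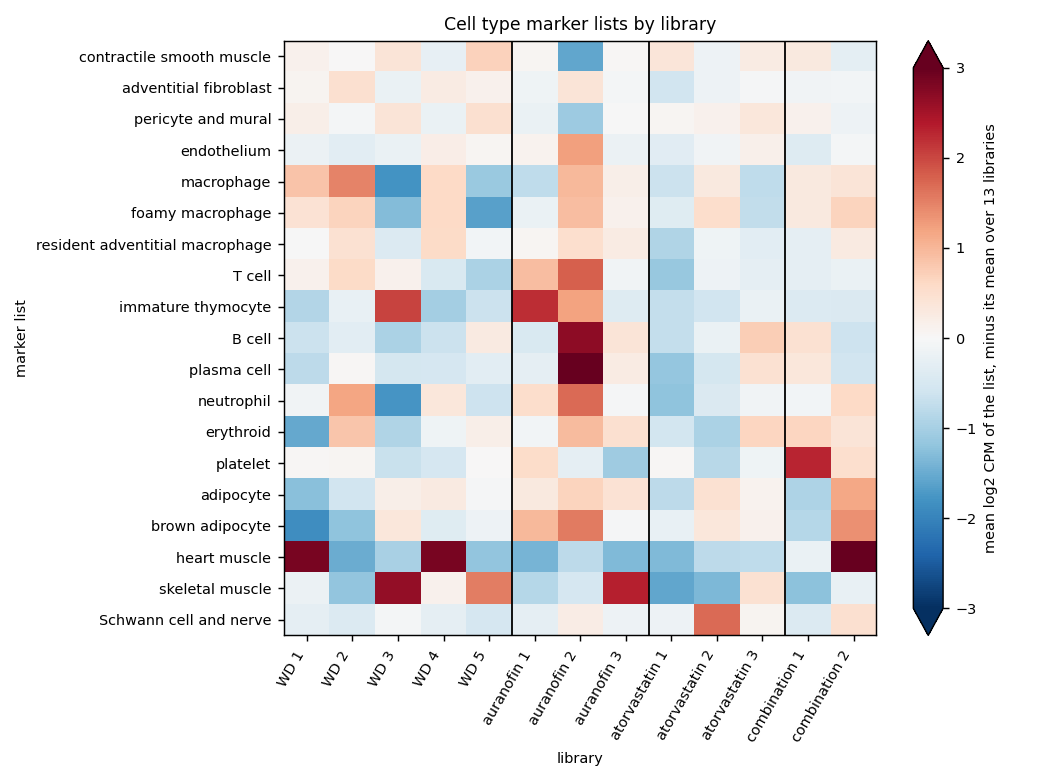
Mean log2 CPM of each of 19 cell type marker lists (rows) in each library (columns), minus its mean over the 13 libraries; red is above the mean, blue below, colours end at 3 log2 units, and black lines divide WD, auranofin, atorvastatin and combination. Auranofin 2 is high for B, plasma and brown adipocyte genes, combination 1 for platelet genes, and WD 1, WD 4 and combination 2 for heart muscle genes.

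Immune and blood cell lists varied in how far the strata and single libraries bore on them. T cell genes were fitted higher in 16 of 16 over all libraries and in 12 in both strata, but with medians of 1.04 without and 0.18 with atorvastatin, and a median over all libraries of 0.73, or 0.30 without auranofin 2. Cd3e, a signalling chain of CD3 on T cells, was at 0.667, 1.52 and 0.298 CPM with auranofin and 0.259 and 0.283 CPM with both drugs, against 0.0507 to 0.613 CPM without auranofin. Only auranofin 1 and 2 stood above the aortas without the drug. Immature thymocyte genes were fitted higher in 7 of 8 over all libraries and in 4 in both strata (medians 1.22 and 0.21). Their summed level was 50.7 CPM in auranofin 2, 47.6 in auranofin 1, 46.4 in WD 3 and at most 32.9 elsewhere. The part of thymocyte transcripts in the T cell values was not tested. Neutrophil genes were fitted higher in 9 of 9 and in both strata in 8 (medians 0.53 and 0.76; 0.58 over all libraries and 0.32 without auranofin 2), with S100a9, a calcium-binding protein of neutrophils, at 3.33 to 55.5 CPM against 0.454 to 19.8. Erythroid genes were fitted higher in 8 of 8 and in both strata in 7 (medians 0.34 and 0.50; 0.40 over all libraries, 0.27 without WD 3 and 0.75 without WD 2), among them Slc4a1, the anion exchanger of red cells (1.33 ± 0.62 and 1.36 ± 0.75). Slc4a1 was separated within each stratum. Neutrophils and red cells are blood cells, and the blood left in each vessel was not measured. Resident adventitial macrophage genes were fitted higher in 6 of 10 without and 10 of 10 with atorvastatin, 6 in both (medians 0.11 and 0.36), and their median over all libraries was 0.25, or 0.07 with the adipocyte score as covariate.

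B cell and plasma cell genes were high in auranofin 2 alone. Ighm, the IgM heavy chain, was at 619.9 CPM there and at 16.8 to 60.2 in the other 12, and the B cell median over all libraries was 1.27 with and 0.04 without that library. The endothelial median was 0.63 without and −0.13 with atorvastatin. Over all libraries but auranofin 2 it was −0.02. Platelet genes had their higher median with atorvastatin, at −0.02 and 2.28, and 0.25 over all libraries without combination 1. Tie1, an endothelial receptor, was at 0.91 ± 0.32 and −0.01 ± 0.41, and Itga2b, the platelet integrin, at −0.02 ± 0.38 and 2.04 ± 0.46.

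Macrophage genes had opposite directions in the strata. Of 16, 13 were fitted lower without atorvastatin (median −0.26) and 15 higher with it (median 0.70). Cd68, a lysosomal protein of macrophages, was at 209, 350.2, 18.5, 174 and 25.5 CPM in WD and 64.5, 192 and 109.7 with auranofin. It was 69.1, 146 and 47.2 CPM with atorvastatin and 160.1 and 142 with both drugs. WD 3 and WD 5 held the lowest values, and the groups overlapped in each stratum. The log2 fold changes were −0.35 ± 0.78 and 0.79 ± 0.96, with errors larger than either. Spp1, osteopontin, was at −0.27 ± 0.92 and 0.77 ± 1.12, and Trem2, a receptor of foamy macrophages, at −0.35 ± 0.84 and 0.75 ± 1.03. Foamy macrophage genes as a list were higher in 8 of 15 without and in 15 of 15 with atorvastatin. NF-kB inflammatory genes had 12 of 24 fitted higher (median 0.00). Il1b, an inflammatory cytokine, was at 0.26 ± 0.84, and −1.08 without auranofin 2; Ccl2, a monocyte chemokine, was at −0.20 ± 0.63, and Vcam1, an adhesion molecule, at 0.00 ± 0.42.

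Heart muscle genes gave the largest opposite values. Myl4, a myosin light chain of the atria, stood at 217 CPM in combination 2 and at most 12.8 elsewhere. Actc1, cardiac actin, was at 315 CPM in combination 2, 128 in WD 4 and 79.2 in WD 1, and at most 7.05 in the other 10. Tnnc1, cardiac troponin C, was highest in the same 3 libraries. Fhl2, a LIM protein of muscle, was at 7.93, 8.50 and 8.23 CPM with auranofin alone, below all 5 WD libraries (10.7 to 25.2), and at 10.4 and 20.9 CPM with both drugs. These 4 were the named genes with the smallest interaction p (edgeR, unadjusted 0.000436 for Myl4, 0.000662 for Fhl2, 0.00086 for Tnnc1 and 0.000952 for Actc1; adjusted 0.791 or above). Leaving out WD 1, WD 4 and combination 2 together, chosen after these values were seen, gave 5 genes in the same and 18 in the opposite direction at an unadjusted p under 0.05 in both strata, and a shared sign for 26.7% of genes.

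Cholesterol synthesis and uptake genes, which statins are known to induce, had 11 of 24 fitted higher with auranofin (median −0.02). LXR targets, which carry cholesterol out of cells, were fitted higher in 7 of 10 (median 0.17, or 0.06 without WD 5). 

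Clock genes shared their sign between the strata in 14 of 18 cases, against 37.8% of all genes, and their median over all libraries was 0.48, or 0.11 without combination 1. Npas2 was at 31.3, 1.92, 18.6, 23.6 and 4.72 CPM in WD and 5.26, 1.98 and 7.34 CPM with auranofin alone. It was 30.7, 30.3 and 31.5 CPM with atorvastatin and 4.36 and 12.99 CPM with both drugs. Libraries of the second stratum were apart, as they were in 19.3% of all genes, while WD 2 and WD 5 were as low as those with auranofin. Nfil3, a repressor in the clock's output, was at 5.06 to 15.7 CPM with auranofin and 4.51 to 44.3 without it (−1.14 ± 0.42), separated with atorvastatin. Nr1d2, a nuclear receptor that represses Bmal1, was at 83.8 to 145 against 46.3 to 109 CPM (0.64 ± 0.22), separated without it. The time of day at which each aorta was taken was not given in the sources used here, and its part in these values was not tested.

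Cell cycle genes were lower in 19 of 20 (medians −0.36 and 0.06) and immediate early genes in 17 of 18 (medians −0.47 and 0.08), each with a median above 0 in the second stratum. Bik, a BH3-only protein that promotes cell death, had log2 fold changes of −1.36 ± 0.34 without and −0.15 ± 0.41 with atorvastatin (interaction unadjusted p 0.0358), and the BCL2 family as a whole was fitted higher in 4 of 16 (medians −0.33 and 0.22).

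The count of genes for the auranofin term itself moved with the libraries. The 486 genes at an unadjusted p under 0.05 became 164 without auranofin 2, 276 without WD 1, and 1436 without combination 1, and none passed the adjusted threshold in any of these fits. Of the 342 higher genes 320 had the same fitted direction in both strata, and of the 144 lower ones 142 did. These genes were selected by a term that joins both strata, so the selection itself largely sets this agreement. Of these, 12 and 18 had libraries that did not overlap within each stratum. Over all genes, the libraries did not overlap in 501 genes (2.77%; 1.45% higher and 1.32% lower) without atorvastatin and in 3488 (19.3%; 8.4% and 10.9%) with it. In both with the same direction this was so in 33 (0.183%), 14 higher (0.0775%) and 19 lower (0.105%), against 47 (0.26%) with opposite directions.

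**Figure D5:**
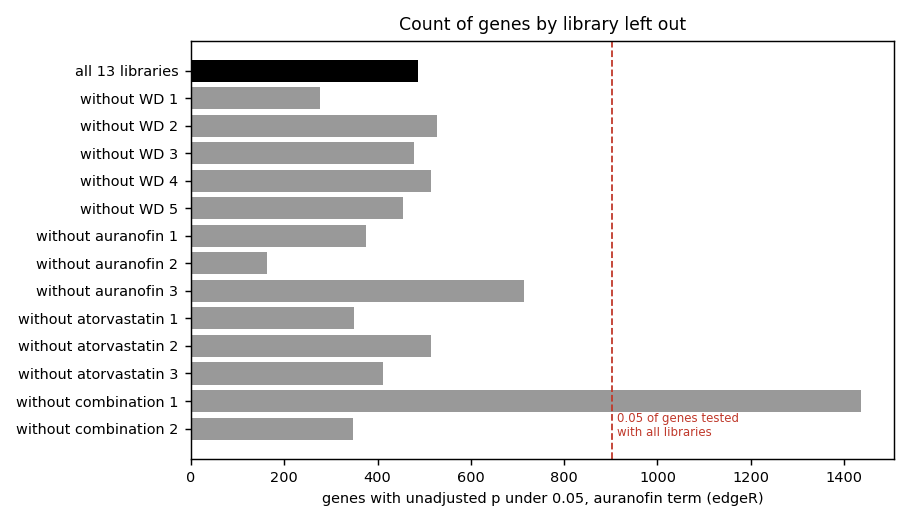
Number of genes with an unadjusted p under 0.05 for the auranofin term (horizontal bars, from 0) with all 13 libraries and with each left out; the dashed line marks 903, a share of 0.05 of the genes tested with all libraries. The count is lowest without auranofin 2 (164) and highest without combination 1 (1436).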

How the data were processed

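Poly-A RNA of 13 aortas was sequenced on DNBseq from non-stranded libraries, per the labels' protocols. Reads were aligned to GRCm39 with STAR 2.6.1d and assigned to genes with featureCounts of Subread 1.6.3, per the submitters' processing notes. The deposited table holds whole-number counts per gene, not normalized by the authors, for 56953 genes, of which 1554 carry no symbol. Library totals ran from 19703683 to 26079566 counts, and depth limits mainly the genes with few counts.

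Counts were filtered with filterByExpr (18055 genes kept), scaled by TMM and tested with the quasi-likelihood test of edgeR 4.0.16 in R 4.3.3, two-sided, with Benjamini-Hochberg adjustment over all genes tested and a threshold of 0.05. The auranofin term had atorvastatin as covariate. The strata and their difference were contrasts of a model with 1 mean per group, so they share the scaling and the estimate of spread. DESeq2 1.42.0, limma 3.58.1 (voom with quality weights), other scalings, filters and covariates, and leaving out each library were alternatives. Values per library are CPM over the library total times its TMM factor. Library properties were compared by exact permutation within strata (smallest p possible 0.00179). Scripts were tested on simulated data. Figures used matplotlib 3.10.9 in Python 3.11.15.

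The comparison, the 44 gene lists (695 names, 665 genes tested) and the panel of 32 genes were chosen with earlier results of these data known. Named genes are the 8 per direction with the smallest auranofin p, up to 8 per direction below 0.05 in both strata, the 4 with the smallest interaction p, the panel, and up to 4 per list with the smallest p. For the first 3 of these sources genes needed an average log2 CPM no lower than 0 and an official, not a predicted, gene name. No 2 libraries agreed within sampling noise, the smallest chi-square per degree of freedom between any pair being 17.7. Promoter windows came from RefSeq on GRCm38.p6, and gene coordinates were not used. Some genes that the rules select are not reported here.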

Additional observations from a re-analysis of the deposited data

Results flagged for a closer look

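Library properties and named genes were examined within WD (5 values), with auranofin (5) and without it (8, WD included). Genes were on the log2(CPM + 0.1) scale. Of 162 such groups of values, 14 held a value far from its neighbours. The rule is set to flag about 1 in 20 independent groups. That rate does not apply here, since WD lies within the 8 and many genes were named from these same values. Combination 2 had the lowest total count, 19703683 against 22932778 in the next library with auranofin. It also held the highest heart muscle transcripts among aortas given auranofin, with Myl4 at 216.7 CPM (next 5.066), Actc1 at 315.3 (4.545), Tnnc1 at 36.66 (1.516) and Fhl2 at 20.93 (10.43). Auranofin 2 had the lowest Foxs1 among the 5, 3.425 CPM against 7.884 in the next, the lowest Rasl11a, 4.874 against 10.54, and the lowest Myh11, 744.6 against 2702. Its Ighm level was 619.9 CPM, against 47.37 in the next library with the drug.

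Among the aortas without auranofin, WD 2 had a Myh11 level of 836.8 CPM against 2735 in the next, which stood apart both within WD and among all 8. WD 2 also had the highest Il15ra among the 8, 12.73 CPM against 10.37. WD 1 had the lowest Adtrp, 1.109 CPM against 3.543. Apoe was lowest in WD 3 within WD, at 6.212 CPM against 14.65.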

How the results depend on the processing

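The auranofin term passed 0 genes under every alternative tried. Its 486 genes at an unadjusted p under 0.05 became 983 with limma voom, 1092 without the low-count filter, 319 as the mean of the strata, 165 with the adipocyte score and 233 with the mitochondrial share as covariate, and 164 to 1436 leaving out 1 library. The count without atorvastatin was 2006 without the filter (13 genes passed), 753 fitted on the 2 groups alone and 378 to 2130 leaving out 1 library, and DESeq2 passed 2. With atorvastatin it was 648 with voom, 576 without the filter (3 passed), 629 on the 2 groups alone and 146 to 479 leaving out 1 library (0 to 8 passed, the 8 without combination 1), and DESeq2 passed 5. The interaction count was 1601 with voom, 1197 without the filter and 285 to 1175 leaving out 1 library (0 to 2 passed, the 2 without combination 1), and DESeq2 passed 9. Without combination 1, and likewise without combination 2, the lone combination library is assumed to vary like the other groups. The filter then kept 19340 and 19297 genes, against 18055 with all libraries. Genes in both strata numbered 32 in the same and 42 in the opposite direction with voom, 14 in the same on the 2 groups alone, 2 in the same with a stricter filter, and 0 and 0 at an unadjusted p under 0.01. Leaving out 1 library gave 1 to 74 and 3 to 40. Without WD 2, WD 5 and auranofin 2 the same-direction count was 32. Without auranofin 2 and combination 2 the counts were 0 and 4, and the auranofin term had 125; these joint omissions were chosen after seeing the data. The causes were not tested.

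Some log2 fold changes of reported genes that did not pass reversed. These were Apoe −0.0619, Slc7a11 −0.00191, Nqo1 0.0797, Mt1 0.0907, Txn1 0.0708, Ccl2 0.0569 and Il1b −0.402 with voom, Vcam1 0.00196 with DESeq2, Vcam1 0.00191 with RLE scaling, Vcam1 0.0202 without the atorvastatin covariate, Vcam1 0.034 as the mean of strata, Txnrd2 −0.0138 and Vcam1 0.239 with the adipocyte score and Il1b −0.497, Txnrd1 0.0794 and Vcam1 0.314 with the mitochondrial share. Leaving out 1 library gave ranges across 0 for Apoe −0.0543 to 0.408, Ccl2 −0.365 to 0.0637, Cd68 −0.052 to 0.445, Hspa1b −1.41 to 0.0248, Ighm −0.147 to 2.19, Il1b −1.08 to 0.769, Mt1 −0.391 to 0.101, Mt2 −0.461 to 0.154, Myh11 −0.42 to 0.0173, Slc7a11 −0.25 to 0.636, Spp1 −0.0436 to 0.397, Trem2 −0.0973 to 0.422, Txn1 −0.308 to 0.157, Txnrd1 −0.116 to 0.0181 and Vcam1 −0.128 to 0.296. The genes of smallest p in each direction kept their sign throughout. They were picked by their p in these same libraries, so the selection itself largely sets this. The shared replicate numbers did not pair the libraries (5 of 15 same-number pairs had a correlation over 0.1, from −0.309 to 0.433, and 3 of 13 libraries correlated best with their own number). With the number as a replicate block 428 genes had an unadjusted p under 0.05, 0 passed, and the reversed value was Il1b −0.328. Library totals differ little, but scaling factors ran from 0.629 in auranofin 2 to 1.233 in WD 4. Usable depth thus differed more than the totals, and it limits chiefly genes below 1 CPM.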
